A study of Homo sapiens with 14 samples.

Results

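DNAH17, KLHDC7B, C1RL and GSTZ1 are the 4 protein-coding genes with the largest falls in HEK293 lines made to express HOXD13. They were picked on the difference between the HOXD13 lines and the V5 vector arrays: called genes with all 4 lines below all 3 vector arrays were ordered by their log2 difference, and the first 4 of 746 protein-coding genes were taken. These are 4 of 10349 genes tested, and 7 of the 54675 probe sets on the array carry their names. Because that difference chose them, it is given here as a description with no test, and it supports nothing further about them.

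HEK293 is a human embryonic kidney cell line, and RNA from 14 of its stably transfected, G418-selected cultures was hybridised to 14 Affymetrix arrays. The HA tag set holds 3 HA vector arrays and 4 HA-tagged HOXD9 lines. The V5 tag set holds 3 V5 vector arrays and 4 V5-tagged HOXD13 lines. Each HOX gene has a mixed population (mix) and clones a, b and c picked out of that mix, so its 4 lines are not fully independent, and the promoter that drives the transgenes is not given in the sources used here. How the vector cultures, labelled as biological replicates, were kept apart is not said. A p-value here therefore reflects how much these arrays vary, which may be technical in part. The number of arrays limits the precision.

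HOXD13 is the last gene of the HOXD cluster and encodes a homeodomain transcription factor of the limb ends and the urogenital tract, where it can raise or lower its target genes. HOXD9, from the middle of the same cluster, binds DNA through a related homeodomain. The 4 genes belong to unrelated pathways. GSTZ1 is maleylacetoacetate isomerase, a glutathione transferase that carries out the step before the last in the breakdown of tyrosine and also metabolises dichloroacetate. C1RL is a serine protease that resembles complement C1r and is known to cleave the precursor of haptoglobin. DNAH17 is a heavy chain of the outer dynein arms that drive the sperm flagellum. KLHDC7B carries kelch repeats, which form a propeller that binds other proteins, and its own role is less well defined.

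The genes lie on 4 chromosomes of GRCh38.p14, per the RefSeq gene table: DNAH17 at chr17:78423697-78577396, KLHDC7B at chr22:50545899-50551023, C1RL at chr12:7094554-7109214 and GSTZ1 at chr14:77321036-77331597. The DNA just before the gene start is shown for the 3 genes that the RefSeq promoter table of that build holds, since it shows how unlike their start regions are. DNAH17 has no sequence shown. Each run is written 5′ to 3′ on the strand of the gene, and capitals mark every TAAT or TTAT on either strand, the short cores bound by homeodomains, which read ATTA or ATAA on the other strand. The KLHDC7B stretch is chr22:50545649-50545898 on the plus strand, and the C1RL stretch is chr12:7109215-7109464 on the minus strand. The GSTZ1 stretch is chr14:77320884-77321035 on the plus strand, because the 98 bases before it lie within POMT2.
KLHDC7B: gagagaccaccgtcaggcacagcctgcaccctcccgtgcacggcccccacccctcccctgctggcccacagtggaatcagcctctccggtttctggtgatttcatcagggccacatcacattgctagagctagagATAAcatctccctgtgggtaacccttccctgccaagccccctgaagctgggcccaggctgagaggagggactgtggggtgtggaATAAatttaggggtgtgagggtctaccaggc
C1RL: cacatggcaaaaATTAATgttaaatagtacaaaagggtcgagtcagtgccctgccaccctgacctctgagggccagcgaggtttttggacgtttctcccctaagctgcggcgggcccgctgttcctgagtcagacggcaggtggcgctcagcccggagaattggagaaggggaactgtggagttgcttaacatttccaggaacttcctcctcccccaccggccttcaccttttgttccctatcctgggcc
GSTZ1: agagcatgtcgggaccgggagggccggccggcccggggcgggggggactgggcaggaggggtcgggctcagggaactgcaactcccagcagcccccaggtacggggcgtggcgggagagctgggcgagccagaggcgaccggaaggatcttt
The GSTZ1 start is rich in CpG, with 28 CpG and 77.2% G and C in its 250 bases, against medians of 16 and 62.0% over 22198 RefSeq promoters of the same length. The other starts are below the median on both counts: C1RL has 10 CpG and 56.0% G and C, and KLHDC7B has 4 CpG and 60.4%. TTAT occurs 2 times before KLHDC7B, each on the strand opposite to the gene, and in 45.7% of all promoters. TAAT occurs before C1RL as 2 overlapping matches, 1 on each strand, and in 40.3% of all promoters, while neither core was found in the 250 bases before GSTZ1. The longer letters CAATAAA and TCGTAAA, forms known to be bound by the HOX13 proteins, are in 2.68% and 0.464% of promoters and in none of these 3 windows on either strand. CAATAAA holds the whole TTAT core, read as ATAA on the other strand. A match is a stretch of letters and not a binding site, and the absence of one covers this window alone.

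Each probe set has 1 deposited GCRMA value per array, in log2 units, so a difference of 1 is a doubling. The HA and V5 tag sets were normalized apart, with a 75th percentile of 6.27 in the first and 7.02 in the second, so levels are set side by side only within a tag set. The transgene was present in the lines named for it: the HOXD13 probe set 207397_s_at read 6.93 ± 0.09 (SD, n = 3) on the V5 vector arrays and between 12.24 and 12.59 in the 4 HOXD13 lines, and the HOXD9 probe set 205605_at read 2.73 ± 0.18 (n = 3) on the HA vector arrays and 6.99 ± 0.52 (n = 4) in the HOXD9 lines. A second HOXD9 probe set, 205604_at, read 4.22 ± 0.02 (n = 3) and 4.40 ± 0.09 (n = 4). Of the 9 embryonic kidney transcription factors on the array, 5 (EYA1, SIX2, SALL1, WT1 and HOXD11) reached a group mean of 5 in each of the 4 groups, as did 4 of 6 epithelial genes, 2 of 4 neuronal filament genes, 1 of 6 fibroblast genes (COL1A1) and 1 of 3 squamous genes (SFN), while none of the mature kidney tubule, liver cell, motile ciliated cell or blood cell markers on the array did. HOX lines varied more than vector arrays, with a median SD per gene of 0.27 in HOXD9 and 0.26 in HOXD13 against 0.05 in each vector group. Fewer cells with a transcript and less of it per cell cannot be told apart in bulk RNA.

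**Figure D1:**
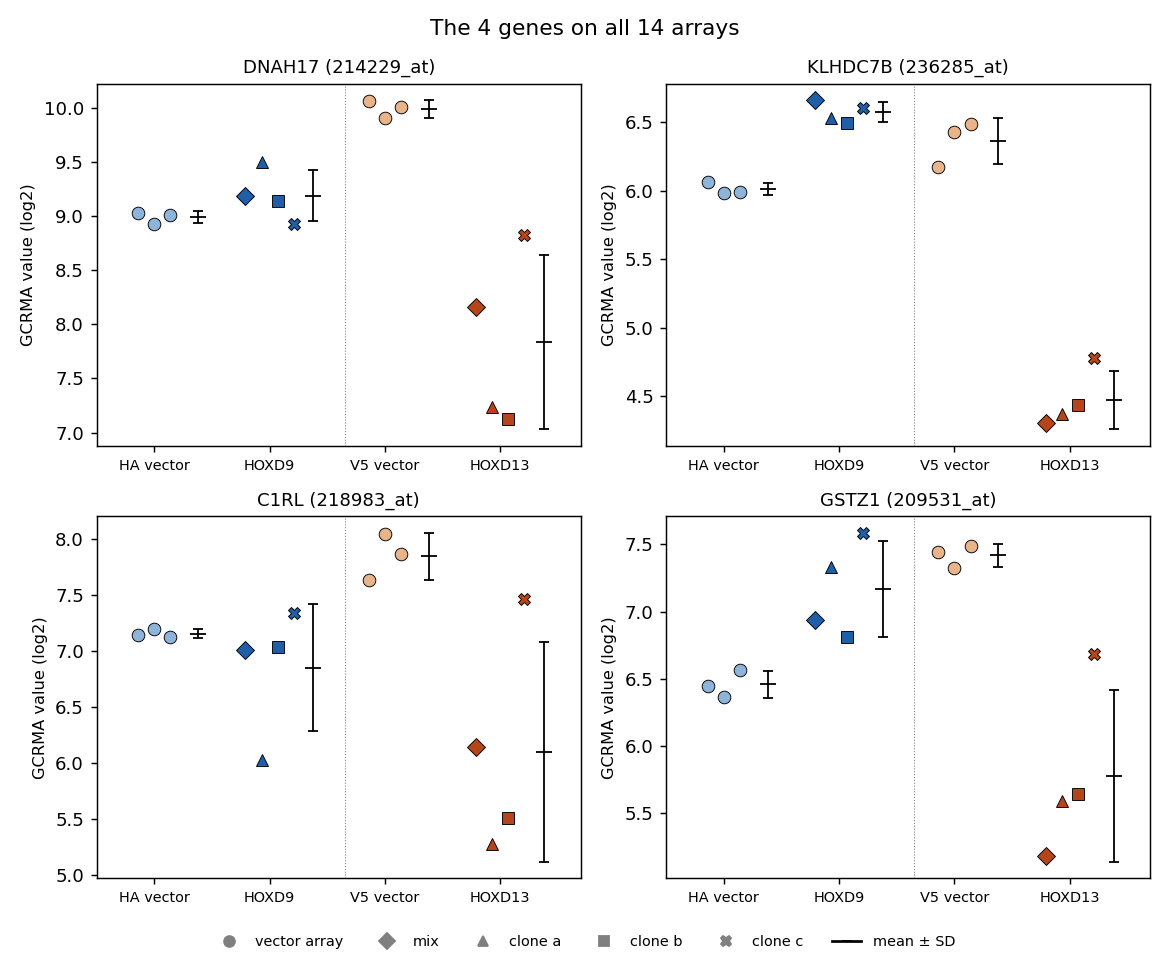
GCRMA value (log2, vertical axis) of the brightest probe set of each gene on all 14 arrays, by group, with the mean and SD of each group as bars; the dotted line separates the tag sets, which are not comparable in level, and marker shapes give the line. All 4 HOXD13 lines lie below the 3 V5 vector arrays for each gene, with clone c (cross) the highest of the 4, whereas the HOXD9 lines lie above their vector arrays for KLHDC7B and GSTZ1 and overlap them for DNAH17 and C1RL.

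GSTZ1, the tyrosine enzyme, is read by a single probe set, 209531_at. The V5 vector arrays read 7.44, 7.33 and 7.49, whereas the HOXD13 mix read 5.18, clone a 5.59, clone b 5.64 and clone c 6.68. The groups did not overlap, and clone c stood about midway between its sister lines and the vector. The means were 5.78 ± 0.64 (SD, n = 4) and 7.42 ± 0.08 (n = 3), a log2 difference of -1.64 (SE 0.28), or 3.12-fold more with the vector.

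C1RL, the protease, has 2 probe sets, of which 218983_at represents the gene. Its V5 vector arrays read 7.63, 8.05 and 7.87. The HOXD13 mix read 6.14, clone a 5.28, clone b 5.51 and clone c 7.47. Clone c was only just below the lowest vector array, while the other lines lay clearly lower. The log2 difference was -1.75 (SE 0.43), from 7.85 ± 0.21 (n = 3) to 6.10 ± 0.98 (n = 4), which is 3.37-fold, and without clone c it was -2.21. The second probe set, 233645_s_at, read between 2.32 and 2.67 on all 7 arrays of the V5 set, near the floor at which GCRMA leaves undetected transcripts, and carries no information on the fall.

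DNAH17, the flagellar motor chain, is read by 214229_at at 10.06, 9.90 and 10.01 on the V5 vector arrays. It read 8.16 in the HOXD13 mix, 7.23 for clone a, 7.13 for clone b and 8.82 for clone c. Again no line reached the vector, and the mix and clone c were higher than clones a and b. The log2 difference was -2.16 (SE 0.32), from 9.99 ± 0.08 (n = 3) to 7.84 ± 0.81 (n = 4), or 4.46-fold. The second probe set, 1553470_at, also had all 4 lines below the vector arrays, but by far less: it read 5.66, 5.77 and 5.65 with the vector and 5.31, 5.48, 5.44 and 5.21 in the mix and clones a, b and c, a log2 difference of -0.33. The size of the DNAH17 fall thus depends on the probe set, and the mean of both gave -1.24.

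KLHDC7B, the kelch protein, was the most even of the 4. Probe set 236285_at read 6.17, 6.43 and 6.49 on the V5 vector arrays and 4.30, 4.37, 4.43 and 4.78 in the mix and clones a, b and c. All lines lay well below the vector. The SD of the HOXD13 lines was 0.21, against 0.64 for GSTZ1, 0.81 for DNAH17 and 0.98 for C1RL. It was 1.28 times that of the vector arrays, against 4.69 times for C1RL, 7.70 times for GSTZ1 and 9.98 times for DNAH17. These ratios also depend on the vector SD, which was larger for KLHDC7B and C1RL. The log2 difference was -1.89 (SE 0.12), from 6.36 ± 0.17 (n = 3) to 4.47 ± 0.21 (n = 4), or 3.71-fold. The HOXD13 lines fell under the filter of 5 that a gene must reach on 3 arrays, so KLHDC7B entered the test through the vector and HOXD9 arrays. The other probe set, 1552639_at, stayed between 2.30 and 2.35 on all 14 arrays and does not detect the gene here.

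**Figure D2:**
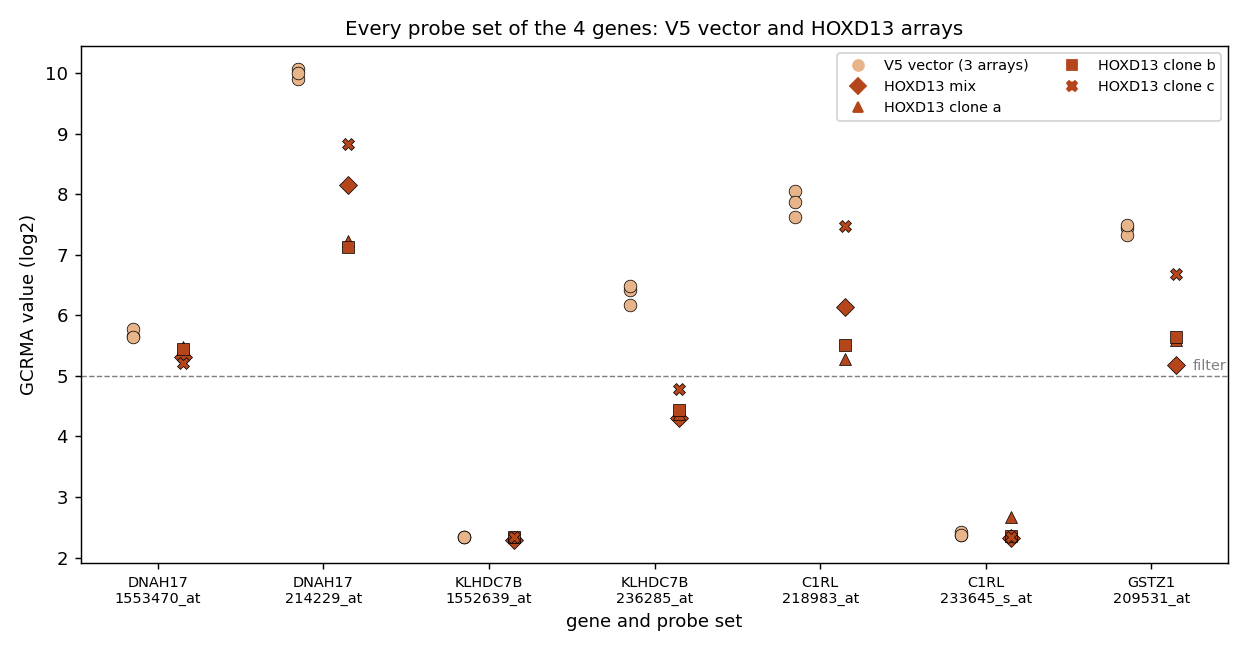
GCRMA value (log2, vertical axis) of all 7 probe sets of the 4 genes in the 3 V5 vector arrays (pale circles) and the 4 HOXD13 lines (dark shapes), with the filter of 5 as a dashed line. The probe sets 1552639_at of KLHDC7B and 233645_s_at of C1RL sit near the floor in both groups, and the difference is -0.33 for 1553470_at of DNAH17 where it is -2.16 for 214229_at.

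All 4 genes were called lower with every line below every vector array, by the way they were chosen, which was so of 7.76% (called lower) and 20.3% (no overlap, lower) of the 10349 genes tested. At the edge of the choice, GSTZ1 as the fourth at -1.643 and HNRNPLL as the fifth at -1.639 were nearly equal. SH3BGR at -1.60 and NT5M at -1.56 came next. HNRNPLL, a splicing factor, read 10.74, 10.65 and 10.67 with the vector and 9.15, 8.27, 8.49 and 10.27 in the mix and clones a, b and c, so that it too was highest in clone c.

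The lines differed in which of the 4 genes fell most. Counted from the largest fall among 10349 genes within a line, GSTZ1 was first in the mix, DNAH17 first in clone b and KLHDC7B first in clone c. High ranks follow from the choice of the genes, which rested on these same shifts. In clone a, DNAH17 ranked 3, C1RL ranked 5, KLHDC7B 25 and GSTZ1 36. In clone b, C1RL ranked 15, KLHDC7B 31 and GSTZ1 47. In clone c, by contrast, C1RL ranked only 2613 with a shift of -0.38 and GSTZ1 ranked 469 with a shift of -0.74, while DNAH17 ranked 25 with -1.17. The HOXD13 transgene does not separate clone c on its probe set 207397_s_at, whose 4 lines span 12.24 to 12.59. Nor does it on 207398_at, which read 3.31 ± 0.22 (n = 3) with the vector and 8.26 to 8.41 in the 4 lines. A further probe set, 236681_at, read 8.87 in clone c, the lowest line, against 8.94 ± 0.01 (n = 3) with the vector and up to 10.42 in the highest. Clone c also had the largest gap between the 3′ and 5′ control probe sets of beta-actin (ACTB), a sign of RNA length, at 2.80 against 2.19 to 2.26 on the V5 vector arrays and 1.82 to 2.13 in the other HOXD13 lines. The same gap for a second control, GAPDH, was 0.861 in clone c. It was 0.682 to 0.719 on the V5 vector arrays and 0.533 to 0.568 in the other HOXD13 lines. The part of these gaps in the smaller shifts of clone c was not tested.

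**Figure D3:**
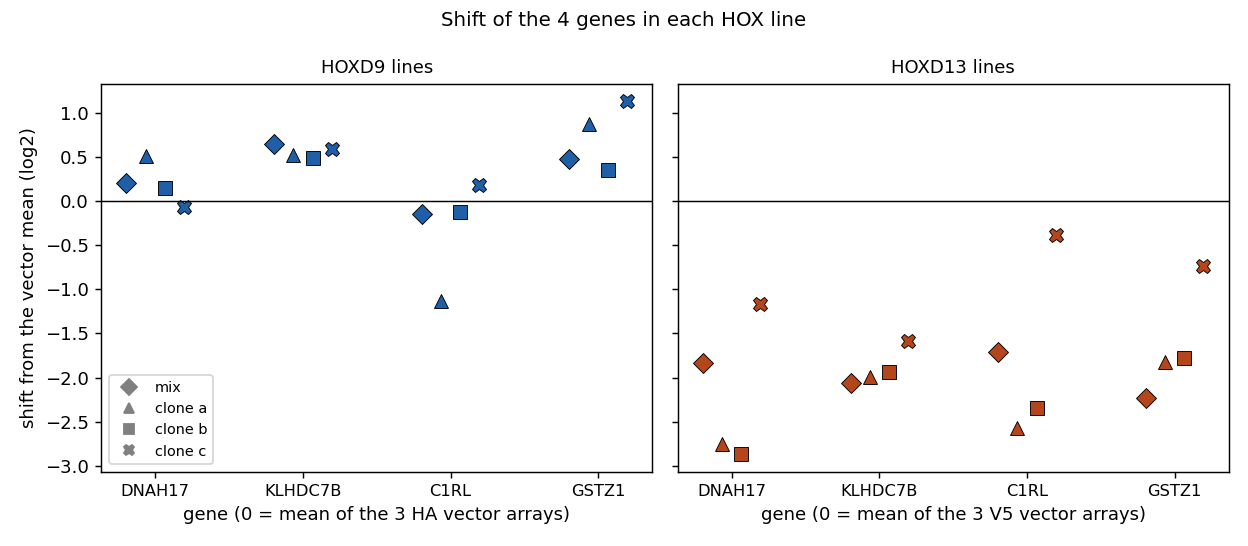
Shift of each HOX line from the mean of its 3 vector arrays (log2, vertical axis; 0 is the vector mean) for the 4 genes, with HOXD9 lines on the left and HOXD13 lines on the right. KLHDC7B holds its HOXD13 lines together between -2.06 and -1.58, C1RL spreads them from -2.57 to -0.38, and in the HOXD9 lines GSTZ1 runs from 0.36 to 1.13.

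The HOXD9 differences were not used to choose the genes, but the HOXD9 arrays entered the filter and the shared spread behind the HOXD13 calls. So the HOXD9 comparison is not fully independent of the choice. The HOXD9 lines ask whether the other HOXD factor moves the same transcripts. None of the 4 genes was called in the HOXD9 comparison, where limma called 1 of all 10349 genes (0.00966%), and 2 of the 4 had an unadjusted p under 0.05, which was so of 23.5% of genes. None of the 4 had all HOXD9 lines below the vector arrays, as 14.1% of genes did. Both KLHDC7B and GSTZ1 had all 4 HOXD9 lines above all 3 HA vector arrays, as did 22.4% of the genes tested.

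KLHDC7B read 6.06, 5.98 and 5.99 on the HA vector arrays and 6.66, 6.53, 6.50 and 6.61 in the HOXD9 mix and clones a, b and c. The lines were tightly grouped and all higher. The log2 difference of 0.56 (SE 0.12, 95% interval 0.30 to 0.83) had a limma p of 0.000518 before and 0.145 after Benjamini-Hochberg adjustment, and an exact permutation p of 0.0571, the smallest that 4 against 3 arrays allow. This call depends on the arrays: the adjusted p was 0.0442 without HOXD9 clone b (0.59) and 0.0164 without HOXD13 clone c (0.56), an array of the other tag set that enters through the shared estimate of the spread.

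GSTZ1 read 6.44, 6.36 and 6.57 with the HA vector and 6.94, 7.33, 6.81 and 7.59 in the HOXD9 mix and clones a, b and c. Every line was higher than every vector array, with clones a and c the highest. Its log2 difference was 0.71 (SE 0.28, 95% interval 0.10 to 1.32), with a limma p of 0.0254 and an adjusted p of 0.172. The exact permutation p was again 0.0571, and without HOXD13 clone c the adjusted p was 0.0394 at the same difference.

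DNAH17 and C1RL overlapped their vector arrays. DNAH17 read 9.03, 8.93 and 9.01 with the HA vector and 9.19, 9.50, 9.14 and 8.92 in the HOXD9 lines in the same order, a difference of 0.20 (SE 0.32, 95% interval -0.49 to 0.88, limma adjusted p 0.678, exact permutation p 0.229). Its second probe set differed by 0.23 (limma adjusted p 0.314 over the 19816 probe sets tested, of which 0.0303% were called). C1RL read 7.15, 7.20 and 7.12 with the vector and 7.01, 6.03, 7.03 and 7.34 in the lines. Only clone a was clearly lower. This array had the smallest ACTB gap of its tag set, 1.70 against 2.29 to 2.37 with the vector. The GAPDH gap was 0.639 in clone a. It ran from 0.607 to 0.645 over the HOXD9 lines and from 0.646 to 0.686 with the vector. With the ACTB gap as a covariate the C1RL difference turned from -0.30 to 0.14 (limma adjusted p 0.725). The part of RNA length in the clone a value was not tested. The C1RL difference was -0.30 (SE 0.43, 95% interval -1.23 to 0.62, limma adjusted p 0.635, exact permutation p 0.514), and without clone a it was -0.03.

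The pathways and families around the 4 genes were covered by 10 lists with 217 genes, of which 205 are on the array and 111 passed the filter. With HOXD13, 16 of the 111 (14.4%) were called lower and 2 (1.80%) higher, beside 7.76% and 2.88% of all genes tested, or 10.6% in either direction. The median log2 difference was -0.08 over the 111 genes and -0.03 over all genes. The lower count moved with the arrays that enter, as did the share of all genes. It was 4, 3 and 3 without V5 vector 1, 2 or 3, 10 and 8 without HA vector 2 or 3, 4, 4 and 7 without the HOXD13 mix, clone a or clone b, and 30 without clone c. The share of all genes called lower was 2.85%, 2.7% and 2.37% without V5 vector 1, 2 or 3, 5.65% and 5.59% without HA vector 2 or 3, 4.38%, 3.73% and 4.54% without the HOXD13 mix, clone a or clone b, and 16.8% without clone c. The higher count was 0 without any 1 vector array or without the HOXD13 mix, clone a or clone b, 1 without the HOXD9 mix, 4 without HOXD9 clone c and 14 without HOXD13 clone c, where 18.9% of all genes were called higher. FAH, QDPR and GSTO1 kept their calls in all 24 other settings tried; each of the other 15 called genes lost it in at least 2.

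Genes that work beside GSTZ1 in tyrosine breakdown and its pterin cofactor included 8 tested members. Of these 3 (37.5%) were called lower and none higher, beside 7.76% and 2.88% of all genes tested. Their median was -0.45, beside -0.03 over all genes. The largest change was in FAH, fumarylacetoacetase, which carries out the last step of the pathway, right after GSTZ1. It read 8.04, 7.79 and 7.93 on the V5 vector arrays and 6.54, 6.44, 6.70 and 6.83 in the HOXD13 mix and clones a, b and c. All 4 lines were lower and close together, clone c included. FAH fell by 1.29 on the log2 scale (SE 0.15, limma adjusted p 0.000550), which is 2.45-fold more with the vector. Its second probe set, 236481_at, was at the floor in both groups.

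QDPR, which recycles the cofactor tetrahydrobiopterin, read 10.66, 10.67 and 10.66 with the vector and 10.12, 10.05, 10.07 and 10.12 in the HOXD13 lines. The groups were far apart relative to their spread, although the change of -0.57 (SE 0.09, adjusted p 0.00203) is smaller than that of FAH. PCBD1, a dehydratase of the same cofactor cycle, was lower by a log2 difference of -0.52 (adjusted p 0.0345), and its call was lost in 10 of the 24 other settings. PCBD2, GCH1, SPR, DNAJC12 and PTS did not pass the test, at -0.78, -0.38, 0.14, -0.05 and -0.03. The enzymes upstream of GSTZ1 were not detected: TAT, HPD and HGD reached at most 2.39, 2.27 and 2.39 on any array.

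Among glutathione transferases and their relatives, 5 of 13 tested genes (38.5%) were called lower and none higher, beside 7.76% and 2.88% of all genes. The median was -0.29. GSTO1, an omega class transferase, read 12.36, 12.30 and 12.40 with the V5 vector and 11.91, 11.77, 11.85 and 11.87 in the HOXD13 lines. It fell by 0.50 (SE 0.08, limma adjusted p 0.00408), and a second probe set, 1557915_s_at, differed by -0.54. GSTO2, its close relative, changed by -0.55 (adjusted p 0.0430), and GSTA4, which clears lipid aldehydes, by -0.48 (adjusted p 0.0402), each call being lost in 13 of the 24 other settings. A dim second GSTA4 probe set, 235405_at, went the other way by 0.32. The remaining called genes were CLIC1 at -0.46 and GSTP1 at -0.43, named after their values were seen. Their calls were lost in 9 and 5 of the 24 other settings. In the list of glutathione synthesis and use, 1 of 15 genes (6.67%) was called lower and none higher, near the 7.76% of all genes. It was GSS, glutathione synthetase, at -0.59 (SE 0.15, limma adjusted p 0.0228), and the list median was -0.17. The second GSS probe set, 211630_s_at, was at -0.50 without a call (limma adjusted p 0.0503 over the probe sets tested).

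**Figure D4:**
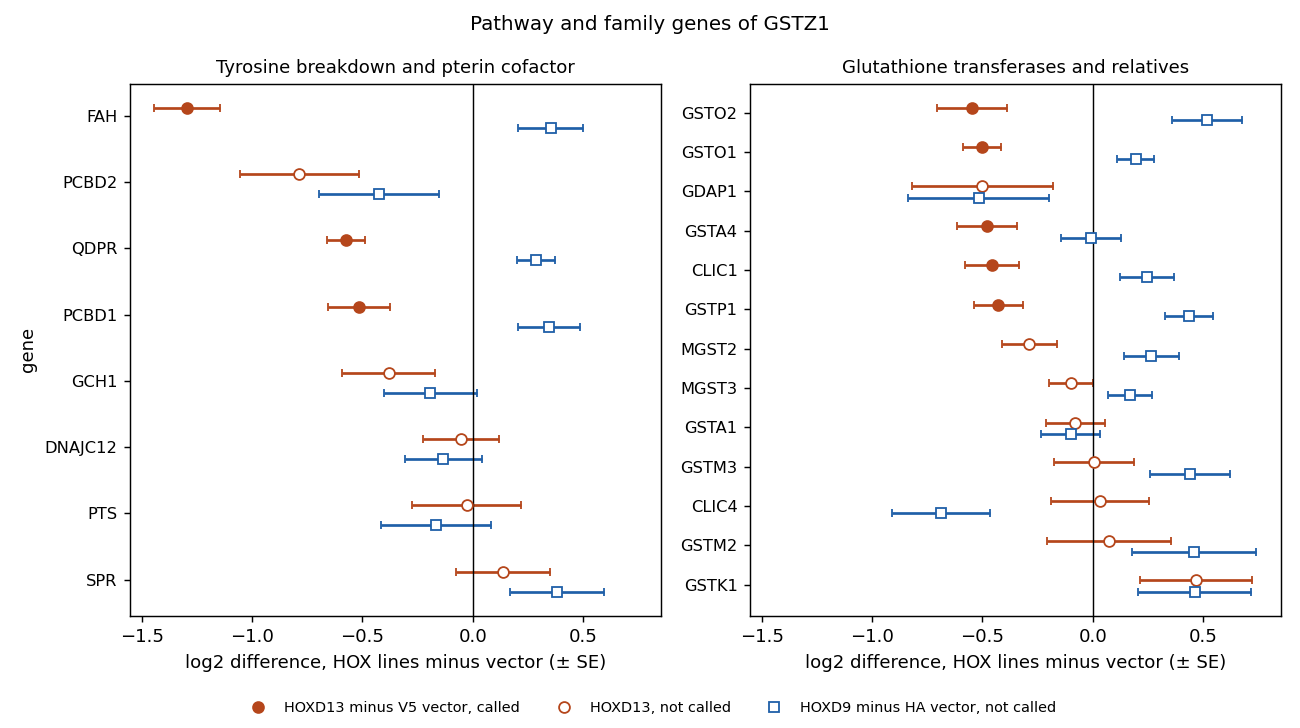
Log2 difference (horizontal axis, with SE) of the tested genes of tyrosine breakdown and its cofactor (left) and of the glutathione transferases and relatives (right), for HOXD13 minus V5 vector (circles, filled where called by limma) and HOXD9 minus HA vector (open squares, none called). FAH at -1.29 with HOXD13 stands at 0.35 with HOXD9, and all 8 filled circles lie to the left of 0.

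With HOXD9 the same lists gave no call, 0 of 111 tested by limma beside 0.00966% of all genes, with 42 at an unadjusted p under 0.05, 22 of them higher, where 23.5% of all genes had such a p. Without HOXD9 clone b, 11 were called higher and 9 lower, beside 4.27% and 4.23% of all genes. Without HOXD13 clone c, 14 were called higher and 4 lower, beside 8.09% and 2.54% of all genes. FAH was at 0.35 (adjusted p 0.185) and QDPR at 0.29 (adjusted p 0.147) with HOXD9. The limma test of the difference between the HOXD13 and HOXD9 effects, which called 9.63% of all genes, gave -1.65 for FAH (adjusted p 0.00143), -0.86 for QDPR (0.00204) and -0.70 for GSTO1 (0.00516). These 3 genes had been called with HOXD13, whose arrays enter both tests, so the second is not independent of the first. For GSTZ1 itself the HOXD13 effect lay 2.35 below the HOXD9 effect, a value given with no test because the HOXD13 effect chose the gene.

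The relatives of DNAH17 were mostly silent. Of 12 other axonemal dynein heavy chains, 10 did not pass the filter, and DNAH3 and DNAH14 differed with HOXD13 by 0.07 and -0.25 without a call. Of the 4 axonemal dynein genes tested 1 (25.0%) was called lower, beside 7.76% of all genes. It was DNAL4, a light chain, at -0.48 (SE 0.13, limma adjusted p 0.0311). The V5 vector values of DNAL4 were 7.18, 7.25 and 7.21 and the HOXD13 values 6.80, 6.70, 6.72 and 6.69. Among 10 assembly and docking factors 1 (10.0%) was called lower, near the 7.76% of all genes. This was TTC12, at -0.41 (SE 0.09, limma adjusted p 0.0148). Its V5 vector arrays read 6.98, 7.04 and 7.17 and its HOXD13 lines 6.72, 6.64, 6.63 and 6.62. Of 15 cytoplasmic dynein genes 2 (13.3%) were called lower, beside the same 7.76%. They were DYNC1I2, an intermediate chain, at -0.46 and DYNLT1, a light chain, at -0.31 (limma adjusted p 0.0393 and 0.0416). Over the probe sets tested, the DYNLT1 probe set had a limma adjusted p of 0.0524. The calls of DNAL4, TTC12, DYNC1I2 and DYNLT1 were lost in 7, 2, 13 and 12 of the 24 other settings. FOXJ1 and the other ciliated cell markers on the array did not reach 5 in any group.

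Few complement genes were measurable beside C1RL. Only 2 of 17 genes that start the classical and lectin pathways were measurable. C1R, the protease that C1RL resembles and the gene next to it on chromosome 12, read 6.002, 5.865 and 5.843 with the V5 vector and 6.347, 6.625, 7.044 and 5.999 in the HOXD13 lines. It was higher in the 3 lines with the least C1RL and level with the vector in clone c. The difference of 0.60 (SE 0.20) did not pass the test (limma adjusted p 0.0677). COLEC12, a scavenger receptor with a collectin domain, was called lower at -0.40 (limma adjusted p 0.0301). That is 1 of the 2 genes measured, beside 7.76% of all genes, and the COLEC12 call was lost in 7 of the 24 other settings. With HOXD9, COLEC12 had a like value of -0.36 (limma adjusted p 0.147). Of 7 core components and regulators none was called with HOXD13 and 2 had an unadjusted limma p under 0.05, beside 10.6% and 27% of all genes. CD59, which protects cells from complement, was at 0.60 (adjusted p 0.104).

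The KLHDC list had 1 of 5 genes (20.0%) called lower and 0 higher. The list of kelch adaptors and cullins had 1 of 32 (3.1%) lower and 2 (6.25%) higher. Over all genes tested the shares were 7.76% and 2.88%. No list was tested as a whole. In the KLHDC family 1 of 5 tested genes was called, KLHDC2, a substrate receptor of a cullin ligase, at -0.91 (SE 0.22, limma adjusted p 0.0237), with V5 vector values of 10.64, 10.62 and 10.69 and HOXD13 values of 9.81, 9.34, 9.28 and 10.52. As with C1RL, clone c was close to the vector. The nearest relative by name, KLHDC7A, reached at most 2.31 on any array. Of 32 kelch adaptors of the BTB class and their cullins, KLHL21 at 1.17 (adjusted p 0.0404) and KLHL14 at 0.57 (adjusted p 0.0336) were called higher and KLHL22 at -0.38 (adjusted p 0.0298) lower, and the median was 0.16. Another KLHL22 probe set that passed the filter, 221838_at, was at -0.31 without a call (limma adjusted p 0.160 over the probe sets tested). The calls of KLHDC2, KLHL21, KLHL14 and KLHL22 were lost in 8, 12, 10 and 9 of the 24 other settings. KLHL21, an adaptor that acts in cell division, was not above the vector in clone c, which read 8.69 beside vector values of 8.60, 8.78 and 8.79.

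Few chromosomal neighbours of the 4 genes could be measured. The 5 genes on each side number 40, of which 22 are on the array and 9 were tested, and limma called 0 of them in either comparison, beside 10.6% of all genes with HOXD13 and 0.00966% with HOXD9, with 4 at an unadjusted p under 0.05 for HOXD13, where 27% of all genes were, and 2 for HOXD9. A count of 0 among 9 is near these shares. POMT2, a mannosyltransferase gene that runs the opposite way from a start 153 bases from that of GSTZ1, read 8.01, 7.99 and 8.09 with the V5 vector. In the HOXD13 lines it read 8.02, 8.22, 8.43 and 7.58, on both sides of the vector, and the difference was 0.03 (SE 0.18, adjusted p 0.933). TMED8 on the other side of GSTZ1 was at -0.35 (adjusted p 0.257). VIPAS39, farther along on that side, read 8.11, 8.27 and 8.26 with the V5 vector and 7.73, 7.80, 7.89 and 7.35 in the HOXD13 lines, all below the vector, and did not pass the test at -0.52 (SE 0.18, adjusted p 0.0768). The nearest tested neighbours of KLHDC7B were SCO2 at 1.11 (adjusted p 0.0835) and CHKB at -0.01, and the only one of DNAH17 was PGS1 at 0.62 (adjusted p 0.112). Those of C1RL were C1R at 0.60 (limma adjusted p 0.0677) and CLSTN3 at 0.09 (limma adjusted p 0.808). Without HOXD13 clone c, 3 of the neighbours were called higher with HOXD13 and 2 with HOXD9, beside 18.9% and 8.09% of all genes. Without HOXD9 clone c, 1 was called higher and 1 lower with HOXD13, beside 5.08% and 12.3% of all genes. The probe sets of the antisense genes DNAH17-AS1 and C1RL-AS1 stayed between 2.15 and 2.41 on all arrays.

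The genes with the pattern most like each of the 4 were found by Pearson correlation over the 14 arrays after the mean of the vector arrays of each tag set was taken away. This measure is a description that rests largely on the HOXD13 arrays, which share their transgene and their tag set. DNAH17 was most like UNC5B-AS1 (r = 0.990), IAH1 (0.989) and CTPS2 (0.987), of which UNC5B-AS1 had the same size of shift with HOXD13, -2.16. KLHDC7B was most like PGLS (0.990), NECTIN4 (0.984) and ADSL (0.983). C1RL was most like EXOSC8 (0.987), IARS1 (0.984) and IRS1 (0.982), and GSTZ1 was most like VPS35L (0.987), KANSL1-AS1 (0.981) and WARS1 (0.981). None of the 4 genes is among the 3 most like genes of another. Their pairs still had r from 0.781 (C1RL with GSTZ1) to 0.957 (KLHDC7B with GSTZ1), a likeness that their choice favours. Over the 7 arrays of the HA tag set alone, r ran from -0.955 (DNAH17 with C1RL) to 0.825 (KLHDC7B with GSTZ1).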

How the data were processed

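The deposited values are log2 expression values, which the authors made with GCRMA per the submitters' processing notes; neither its version nor a genome build is given in the sources used here. The scale was read from the values. Sorted values were identical within each tag set to 0.00195 or less, so the sets had been normalized apart. The platform annotation of 2016 named a single gene for 41097 probe sets, several for 1801 and none for 11777; current symbols came from RefSeq GRCh38.p14, which matched 41043. A gene was tested through its probe set with the highest mean if 3 or more of the 14 arrays reached a value of 5, which kept 10349 genes (19816 probe sets). A model of 4 group means was fitted with limma 3.58.1 in R 4.3.3 (10 residual degrees of freedom, prior 3.02), with two-sided p-values adjusted by Benjamini-Hochberg over all genes tested, and called under 0.05. Exact two-sided permutation tests covered the 35 splits of 4 against 3 arrays. Files were read with version 1.17.8 of data.table and pandas 2.3.3, and matplotlib 3.10.9 under Python 3.11.15 drew the plots. The code was tested on simulated data. Homeodomain letters were searched in the 250 bases before each start.

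The genes, gene lists and tests were chosen with earlier results of these data known. Genes named were the 4 genes with all probe sets, the 3 next in their ranking, the nearest tested neighbours, and the 3 most like genes of each. With HOXD13 they also included up to 3 called genes with the largest change in each list, or else the gene with the smallest p. The plan set the same rule for HOXD9, where no list gene was called, but its genes with the smallest p are not all given. Other names were added after their values were seen. Alternatives changed the filter, probe sets, scaling, spread model, an ACTB covariate and the arrays left out.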

Additional observations from a re-analysis of the deposited data

Results flagged for a closer look

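GSTZ1 and KLHDC7B lay on opposite sides of their vector arrays with the 2 factors, although neither was called with HOXD9. All 4 HOXD13 lines lay below and all 4 HOXD9 lines above their vector arrays, and the HOXD13 effect minus the HOXD9 effect was -2.35 for GSTZ1 and -2.46 for KLHDC7B on the log2 scale. These differences were not tested, because the HOXD13 effect chose both genes.

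Among the 18 companion genes called with HOXD13, 12 had a HOXD13 effect that differed from the HOXD9 effect by limma's test of the difference, which called 9.63% of all genes. The 18 had been picked by a HOXD13 call on the same arrays, so this count is not independent evidence of a difference. In the tyrosine and glutathione lists the differences were -1.65 for FAH (adjusted p 0.00143), -0.86 for QDPR (0.00204), -0.86 for PCBD1 (0.0188), -0.70 for GSTO1 (0.00516), -1.06 for GSTO2 (0.0122), -0.86 for GSTP1 (0.00629), -0.70 for CLIC1 (0.0250) and -1.07 for GSS (0.00824). In the dynein lists they were -0.74 for DNAL4 (0.0242) and -0.76 for TTC12 (0.00506). In the kelch list they were -0.89 for KLHL22 (0.00358) and 1.10 for KLHL14 (0.00987), the only gene of the 12 that was higher with HOXD13 than with its vector.

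Of 50 groups of 4 lines examined for a line far from the other three, 3 had one, about as many as the 1 in 20 that chance gives. Clone a read 2.67 for the C1RL probe set 233645_s_at beside 2.32 to 2.36 in its sister lines, and the HOXD13 mix read 2.30 for the KLHDC7B probe set 1552639_at beside 2.34, both near the floor. Clone c read 6.04 for GSTO2 beside 6.43 to 6.51.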

How the results depend on the processing

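With HOXD13 the 4 genes stayed lower in all 24 alternatives, and only DNAH17 moved by more than its spread, to -1.24 with the mean of its probe sets. Leaving out 1 array gave -2.49 to -1.92 for DNAH17, -1.997 to -1.830 for KLHDC7B, -2.21 to -1.48 for C1RL and -1.95 to -1.45 for GSTZ1. With HOXD9, KLHDC7B became called with the ACTB gap as a covariate (0.63, adjusted p 0.0332), without HOXD9 clone b (0.59, 0.0442), without HOXD13 clone c (0.56, 0.0164) and without the 3 arrays whose ACTB gap lies farthest from their vectors (0.58, 0.0296), a setting chosen after seeing the data; its adjusted p ran from 0.0164 to 0.384. GSTZ1 became called without HOXD13 clone c (0.71, 0.0394; range 0.0394 to 0.387). C1RL turned to 0.14 with the ACTB covariate (adjusted p 0.725; range 0.399 to 1). Leaving out 1 array gave 0.53 to 0.59 for KLHDC7B, 0.57 to 0.83 for GSTZ1, 0.09 to 0.29 for DNAH17 and -0.47 to -0.03 for C1RL.

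List genes called higher with HOXD13 (2) numbered 0 with no filter, 4 with a spread for each group, 9 with the ACTB covariate, 13 without the 3 arrays and 0 to 14 without 1 array, and all genes were called higher at 0.905%, 6.65%, 10.4% and 16.6% in the first 4 settings. Those called lower (16) numbered 25 with the ACTB covariate (14.7% of all genes) and 3 to 30 without 1 array. With HOXD9 (0 and 0), 1 was higher with the covariate (0.415% of all genes), 3 without the 3 arrays (0.889%) and 0 to 14 without 1 array, and 0 to 9 were lower without 1 array. Neighbours called higher with HOXD13 (0) numbered 3 with a spread for each group, 3 with the covariate and 3 without the 3 arrays. They numbered 0 to 3 without 1 array. Those called lower (0) numbered 1 with a spread for each group, 1 with the covariate and 0 to 1 without 1 array. Of all genes, 10.5% were called lower with a spread for each group and 14.7% with the covariate. With HOXD9, 1 neighbour was higher without the 3 arrays and 0 to 2 without 1 array. Over the 18 called list genes, 297 of 432 settings kept the call, 135 lost it and none reversed it. The cause of these changes was not tested. No paired analysis was possible because the vector arrays carry replicate numbers while the HOX lines are labelled mix, a, b and c. Signal near the floor limits 2 of the 7 probe sets, and no separate RNA quality measure was used here beyond the control probe sets.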
